A study of Homo sapiens with 24 samples.

Results

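AP-1 is the dimeric transcription factor built from FOS, JUN and ATF or BATF family proteins, and 9 of its subunit genes were read here among the 18132 genes on the array. They were FOS, FOSB, FOSL1, FOSL2, JUN, JUNB, JUND, ATF3 and BATF3, picked by name as the subunits of the complex. Each gene was read from 1 probe set, the one with the highest mean over the 24 arrays among those that name a single gene. The 9 genes had 31 such probe sets in all, and the other 22 are given beside the results they touch.

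All subunits carry a basic region that contacts DNA and a leucine zipper that joins them into pairs. JUN proteins can pair with one another, whereas FOS proteins need a JUN partner, and the pairs bind the short palindrome TGANTCA found at many genes of growth, migration and matrix breakdown. FOS and JUN are immediate early genes that growth factor signalling switches on through ERK and JNK kinases, FOSL1 (FRA-1) follows sustained ERK activity and is often high in invasive carcinoma cells, and ATF3 is a stress-induced subunit.

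The arrays were Affymetrix PrimeView, which read mostly the 3' end of a transcript. Caki-1 cells, from a skin metastasis of a clear cell renal carcinoma, and 769-P cells, from a primary renal carcinoma, received DMSO or 1 µM dasatinib, which blocks SRC-family, ABL and several receptor kinases, for 6, 12 or 24 h. Each of the 8 groups held 3 arrays. Both are established tumour cell lines, and the labels name no genetic change made in either. The 3 DMSO arrays of a line carried no time and were the control at all 3 times, so the comparisons within a line share them, and hours of drug cannot be told apart from hours in culture. The labels call the arrays biological replicates without saying how the cultures were kept apart, so p-values measure the spread between these samples, which may be technical.

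The median log2 signal of an array was 6.008 to 6.084, and replicate arrays correlated over probe sets at 0.9929 to 0.9975. Of 10 listed markers of renal epithelium and clear cell carcinoma 8 were measured, and all 8 lay above the level used to drop dim genes in both lines, among them the kidney transcription factor PAX8 at a mean of 10.43 in Caki-1 and 10.003 in 769-P. Of 4 leukocyte genes 3 lay above that level in Caki-1 and 2 in 769-P, and of 3 endothelial genes 2 did in each line, among them the B-cell gene CD79A at 6.30 in Caki-1 and 6.27 in 769-P. PTPRC, the leukocyte antigen CD45, was at 3.45 and 3.48, and CDH5, the endothelial cadherin, at 5.15 and 5.13, all below it. In bulk RNA, fewer cells that express a gene and less RNA per cell cannot be told apart.

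Values are log2 signals, changes are log2 differences of group means ± SE, and n is 3 arrays a group unless stated otherwise. "Rose", "fell" and "called" are used of an adjusted p under 0.05 in limma, over all genes tested. A signal is compared with other groups for the same gene and never with another gene, because probe sets differ in affinity. All 9 genes passed the filter on dim genes in both lines.

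The subunits did not move together. FOSL1 and JUN fell at all 3 times in both lines, ATF3 rose at all 3 times in both by the probe set read for it, and FOSL2 rose from 6 h in 769-P and from 12 h in Caki-1. JUNB fell in 769-P and rose in Caki-1 at 12 and 24 h. BATF3 fell in 769-P at every time, FOS was higher at 24 h in both lines, and FOSB was called at no time.

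At 6 h in Caki-1, 3 of the 9 subunits were called, 1 higher and 2 lower, where 26.3% of all tested genes were (12.3% higher, 14.0% lower). The count was 8 at 12 h (5 higher, 3 lower) against a background of 48.4% (24.1% and 24.4%), and 7 at 24 h (5 higher, 2 lower) against 62.8% (32.9% and 29.9%). In 769-P the counts were 6 at 6 h (2 higher, 4 lower) against 30.9% (16.4% and 14.5%), 6 at 12 h (2 higher, 4 lower) against 47.5% (24.9% and 22.6%), and 7 at 24 h (3 higher, 4 lower) against 55.7% (31.1% and 24.6%). The median change of the 9 genes was 0.08, 0.26 and 0.35 at 6, 12 and 24 h in Caki-1, beside 0.0086, 0.0451 and 0.0794 for all tested genes. In 769-P it was -0.19, -0.11 and -0.16, beside 0.0246, 0.0178 and 0.0389. With so many genes called by 24 h, the number of called subunits says little about them, and the sizes and directions given next carry the description.

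**Figure D1:**
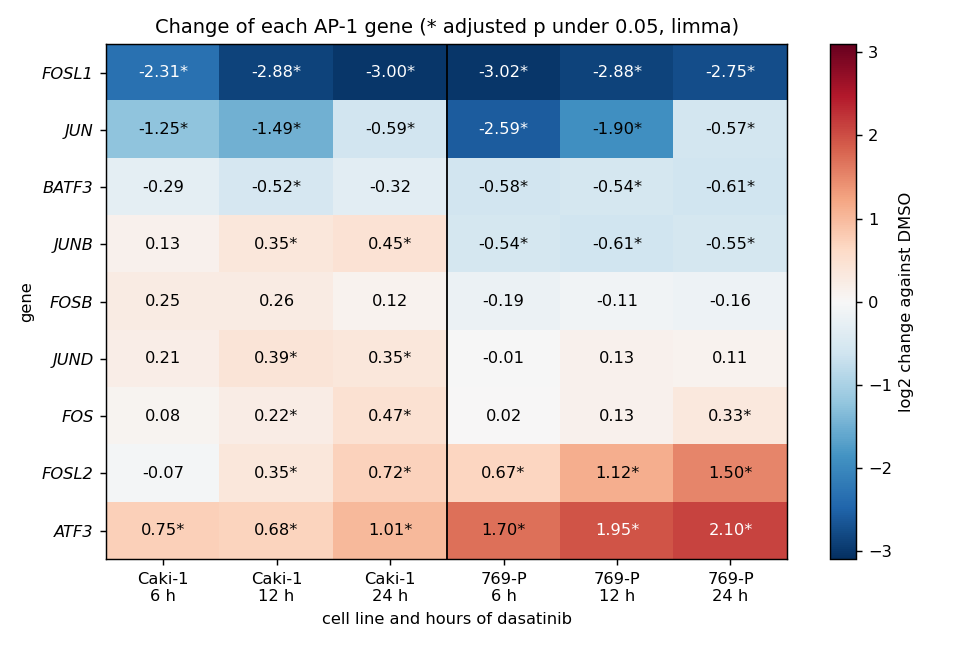
Log2 change against DMSO of each AP-1 gene (vertical axis) by line and hours of dasatinib (horizontal axis), coloured from blue for lower to red for higher, with an asterisk where the adjusted p was under 0.05. FOSL1 and JUN are blue in all 6 columns and ATF3 is red in all 6, while JUNB changes sign between the lines, with 0.45 in Caki-1 and -0.55 in 769-P at 24 h.

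The heat map of changes by line and time sets these patterns side by side, and the plot of all array values shows the signals behind them.

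**Figure D2:**
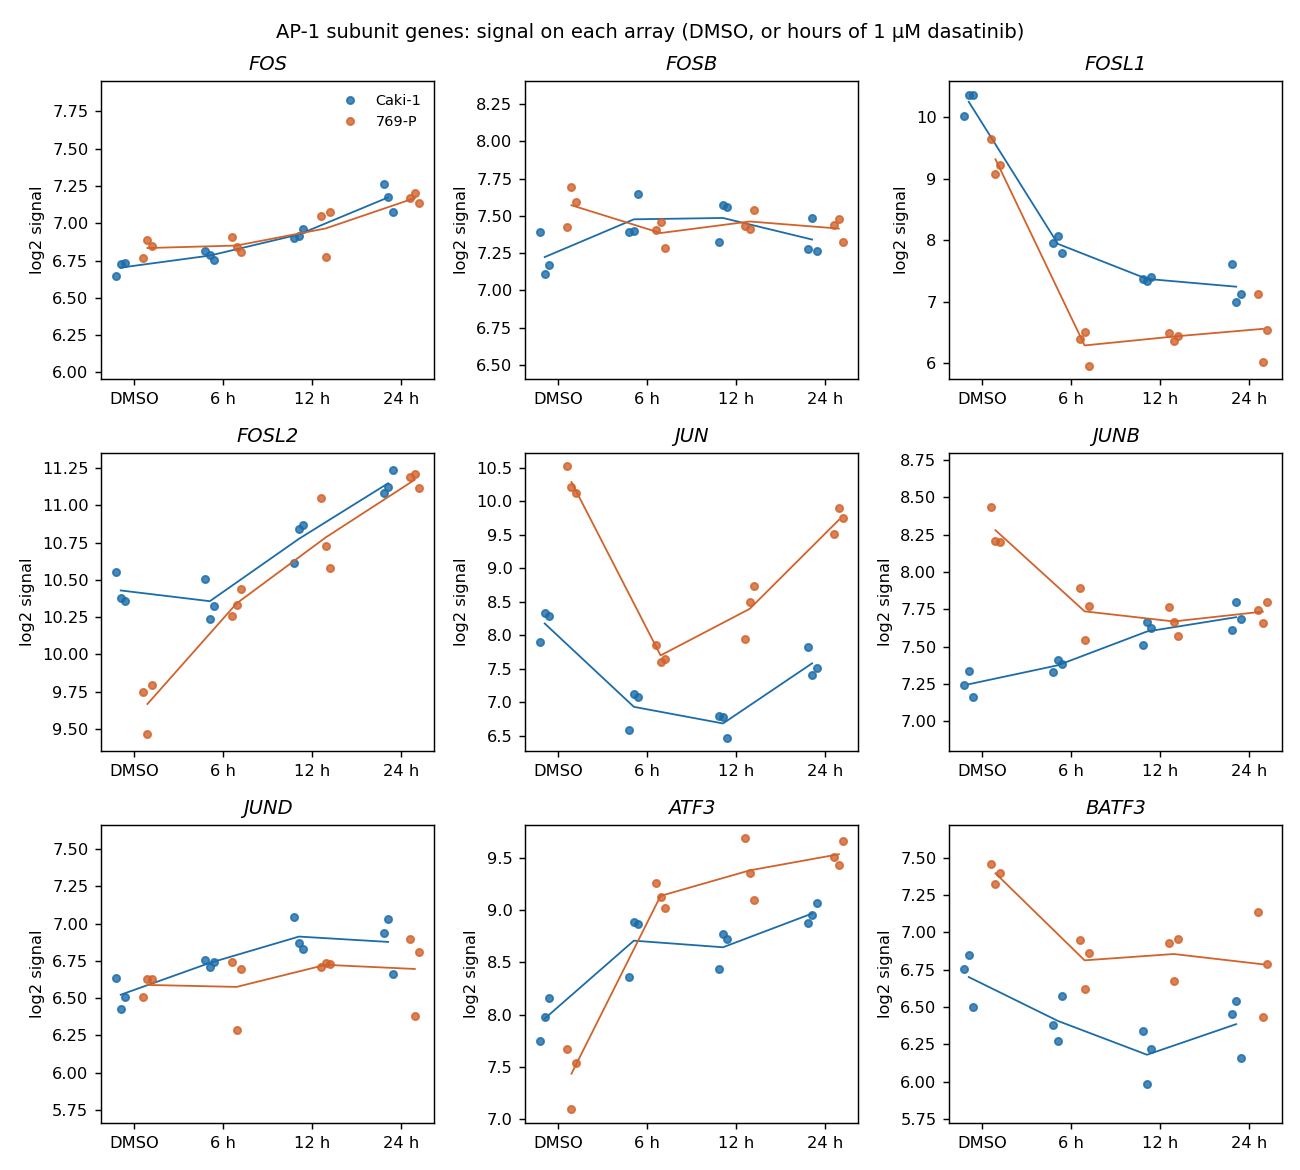
Log2 signal of each AP-1 gene on every array (points) and group means (lines) under DMSO and after 6, 12 and 24 h of 1 µM dasatinib, for Caki-1 (blue) and 769-P (orange), with a vertical axis of its own for each gene. FOSL1 drops from a mean of 10.25 under DMSO to 7.25 at 24 h in Caki-1, and JUN in 769-P drops from 10.29 to 7.70 at 6 h and stands at 9.72 at 24 h.

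FOSL1, the FOS-family subunit that lacks the activation domain of FOS itself, lies on chromosome 11 from 65892049 to 65900545 (GRCh38.p14, as all gene places here). In Caki-1 it read 10.03, 10.36 and 10.37 under DMSO, 7.96, 8.07 and 7.79 at 6 h, 7.37, 7.34 and 7.40 at 12 h, and 7.62, 6.9996 and 7.12 at 24 h. In 769-P it read 9.65, 9.08 and 9.22 under DMSO, 6.40, 6.51 and 5.96 at 6 h, 6.4997, 6.36 and 6.45 at 12 h, and 7.12, 6.02 and 6.54 at 24 h. Every treated array lay more than 1 log2 unit below every DMSO array of its line. Among treated arrays the 6 h group of Caki-1 stood above both later groups without overlap, whereas the 3 treated groups of 769-P overlapped.

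The fall of FOSL1 was deepest at 24 h in Caki-1 (-3.00 ± 0.14, adjusted p = 2.41e-10, an 8.02-fold lower signal) and at 6 h in 769-P (-3.02 ± 0.22, adjusted p = 6.16e-08). At 12 h the change was -2.88 in both lines. From 6 to 12 h FOSL1 fell further in Caki-1, by 0.57 ± 0.14 (adjusted p = 0.00758), and 3 of its 6 probe sets were called there. In 769-P the same step was 0.14 with a 95% interval from -0.33 to 0.61. The difference between the lines at 6 h was 0.72 ± 0.28 and missed the threshold (adjusted p = 0.147, 95% interval 0.13 to 1.30 before adjustment). All 6 probe sets of FOSL1 fell at every time in both lines, and at 24 h their changes ran from -3.71 to -1.14 in Caki-1 and from -3.60 to -0.75 in 769-P. The direction of the change is thus shared by all 6, and its size and the time of the deepest fall depend on the probe set.

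FOSL2 (FRA-2), the other FOS-related subunit without the full activation domain, lies on chromosome 2 from 28392858 to 28417317 and moved opposite to FOSL1. Its signals in Caki-1 were 10.55, 10.38 and 10.36 under DMSO, 10.50, 10.24 and 10.33 at 6 h, 10.61, 10.84 and 10.87 at 12 h, and 11.08, 11.12 and 11.24 at 24 h. Those in 769-P were 9.75, 9.46 and 9.79 under DMSO, 10.25, 10.33 and 10.44 at 6 h, 11.05, 10.73 and 10.58 at 12 h, and 11.19, 11.21 and 11.12 at 24 h. The 4 groups of 769-P stood in order of time without overlap between neighbours. In Caki-1 the 6 h arrays overlapped DMSO and the later groups stood above both.

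In Caki-1 the change of FOSL2 was -0.07 ± 0.09 at 6 h (adjusted p = 0.619), and FOSL2 rose by 0.35 at 12 h (adjusted p = 0.00366) and by 0.72 at 24 h (adjusted p = 3.36e-06). In 769-P it rose by 0.67, 1.12 and 1.504 at the 3 times, the last with an SE of 0.11 and an adjusted p of 9.15e-09. The signal under DMSO was 0.76 ± 0.10 higher in Caki-1 than in 769-P, and at 24 h the group means were 11.15 and 11.17. By the next brightest probe sets Caki-1 still stood above 769-P at 24 h, at 10.36 against 9.89 and 9.98 against 9.61. A dimmer one stood at 7.42 against 7.66, and the dimmest at 6.54 against 6.36. All 5 probe sets rose in 769-P at 24 h, by 0.37 to 1.504, and 4 of 5 rose in Caki-1. At 12 h 3 of 5 rose in Caki-1, and at 6 h 4 of 5 rose in 769-P.

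FOS, the founding subunit and a textbook target of ERK through the factors SRF and ELK1, lies on chromosome 14 from 75278828 to 75282230. It read 6.64, 6.73 and 6.74 under DMSO in Caki-1 and 7.26, 7.18 and 7.08 at 24 h, and in 769-P 6.76, 6.89 and 6.85 under DMSO and 7.17, 7.20 and 7.13 at 24 h. The 24 h arrays lay above all DMSO arrays in both lines. FOS rose by 0.47 ± 0.08 at 24 h in Caki-1 (adjusted p = 0.000168) and by 0.33 ± 0.10 in 769-P (adjusted p = 0.0085). At 6 h its change was 0.08 (95% interval -0.10 to 0.26) in Caki-1 and 0.02 (-0.19 to 0.23) in 769-P. By the probe set read for it, no fall of FOS comparable to that of JUN or FOSL1 was measured at 6 h. The 2 dimmest FOS probe sets had DMSO means of 4.73 and 4.61 in Caki-1 and 4.43 and 4.55 in 769-P. These lay under the filter level, where a fall could hardly be measured. FOS was called at 12 h in Caki-1, at 0.22 ± 0.08 with an adjusted p of 0.0395. That call was lost when any 1 of its 6 arrays was left out, with adjusted p from 0.0607 to 0.114. The call was also lost under quantile normalization, median centring and no filter (adjusted p = 0.0534, 0.0751 and 0.0719). With the mean of all FOS probe sets, dim ones included, the change was 0.52 (adjusted p = 0.00151). In a fit of single probe sets, added after seeing the data, 2 of 3 rose at 12 h, by 0.32 and 1.11 (adjusted p = 0.0241 and 0.00155). Their DMSO means of 5.33 and 4.73 lay under the filter level, so they passed it only through the treated arrays. The probe set read for FOS was not called in that fit (adjusted p = 0.0521).

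The other 3 probe sets of FOS are dimmer, and all 3 changed more at 24 h than the one read for the gene. The first read 4.66, 4.98 and 4.55 under DMSO in Caki-1 and 5.78, 6.44 and 6.62 at 24 h, and 4.34, 4.28 and 4.67 under DMSO in 769-P and 6.88, 6.89 and 6.66 at 24 h. Its 24 h arrays were all above its DMSO arrays, which lay under the level of the filter, so its changes of 1.55 and 2.38 start from a signal that may be background and are given as a description. The second changed by 0.85 in Caki-1 and 1.06 in 769-P and lay below the filter in both lines. The third changed by 0.53 in Caki-1 and 0.39 in 769-P. Its mean over a line lay above the filter in both, but its DMSO mean in Caki-1, 5.33, lay under it. Of the FOS probe sets above the filter by their mean over a line, 3 of 3 rose at 24 h in Caki-1 and 2 of 2 in 769-P. In Caki-1 the first and the third passed the filter only through the treated arrays, so that count is given as a description. With the mean of all 4 the change at 24 h was 0.85 in Caki-1 (adjusted p = 1.35e-05) and 1.04 in 769-P (adjusted p = 2.97e-07), dim probe sets included.

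FOSB, a close relative of FOS with its own activation domain, lies on chromosome 19 from 45467996 to 45475179. Its array values ran from 7.11 to 7.64 in Caki-1 and from 7.29 to 7.70 in 769-P, and neighbouring groups overlapped throughout. No comparison of FOSB with DMSO was called. Its changes were 0.25, 0.26 and 0.12 in Caki-1, with a 95% interval from 0.02 to 0.50 at 12 h before adjustment, and -0.19, -0.11 and -0.16 in 769-P. Its other probe set was not called at any time either. FOSB at 12 h in Caki-1 was close to the threshold at an adjusted p of 0.0658, and it passed with all 24 arrays in 1 fit, at 0.0393.

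JUN, the first known partner of FOS and an activator of its own promoter, lies on chromosome 1 from 58780791 to 58784047. In Caki-1 its signals were 7.89, 8.34 and 8.29 under DMSO, 6.59, 7.13 and 7.07 at 6 h, 6.79, 6.78 and 6.47 at 12 h, and 7.82, 7.41 and 7.51 at 24 h. In 769-P they were 10.52, 10.21 and 10.13 under DMSO, 7.85, 7.60 and 7.65 at 6 h, 7.95, 8.50 and 8.73 at 12 h, and 9.51, 9.91 and 9.75 at 24 h. JUN was lowest at 6 h in 769-P and climbed at each later time without overlap, and it was still below every DMSO array at 24 h. In Caki-1 the 6 and 12 h groups overlapped, and the 24 h arrays lay between them and DMSO.

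JUN fell at 6 h in 769-P, with a change of -2.59 ± 0.17 (adjusted p = 1.67e-08), and in Caki-1, with -1.25 ± 0.16 (adjusted p = 4.98e-05). At 12 h its change was -1.895 in 769-P and -1.49 in Caki-1, and at 24 h it was -0.57 ± 0.17 (adjusted p = 0.00822) and -0.59 ± 0.16 (adjusted p = 0.00507). The partial return was itself called. From 12 to 24 h JUN rose by 1.33 ± 0.17 in 769-P (adjusted p = 2.23e-05) and by 0.90 ± 0.16 in Caki-1 (adjusted p = 0.000901), and from 6 to 12 h it rose by 0.70 in 769-P (adjusted p = 0.00767). In 769-P all 4 probe sets of JUN rose from 12 to 24 h, and in Caki-1 2 of 4 did. Against DMSO all 4 fell at 6 and 24 h in 769-P, and 3 of 4 did at each of these times in Caki-1.

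JUNB, a JUN-family subunit with weaker activating activity that can hold back JUN, lies on chromosome 19 from 12791486 to 12793315 and has 1 probe set here. In Caki-1 it read 7.24, 7.34 and 7.16 under DMSO, 7.33, 7.41 and 7.38 at 6 h, 7.51, 7.66 and 7.63 at 12 h, and 7.61, 7.80 and 7.68 at 24 h. In 769-P it read 8.43, 8.20 and 8.20 under DMSO, 7.89, 7.54 and 7.77 at 6 h, 7.77, 7.66 and 7.57 at 12 h, and 7.74, 7.66 and 7.80 at 24 h. The lines did not overlap under DMSO, with 769-P above Caki-1, and overlapped at 24 h. In Caki-1 the change of JUNB at 6 h was 0.13 (adjusted p = 0.329), and its 6 h arrays overlapped DMSO. JUNB rose by 0.35 at 12 h (adjusted p = 0.00313) and by 0.45 ± 0.09 at 24 h (adjusted p = 0.000327) in Caki-1. In 769-P it fell at the 3 times, with changes of -0.54, -0.61 and -0.55 and adjusted p of 0.00095, 0.000172 and 0.000346.

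JUND, the JUN-family subunit that resting cells also make, lies on chromosome 19 from 18279694 to 18281622 and has 1 probe set. Its arrays ran from 6.43 to 7.04 in Caki-1 and from 6.29 to 6.89 in 769-P. In Caki-1 the DMSO arrays lay below all treated arrays, and in 769-P neighbouring groups overlapped. JUND rose in Caki-1 by 0.39 ± 0.11 at 12 h (adjusted p = 0.00723) and by 0.35 ± 0.11 at 24 h (adjusted p = 0.00985). Without replicate 2 of the 24 h group the latter was 0.28 with an adjusted p of 0.0513. In 769-P its changes were -0.01, 0.13 and 0.11, with a 95% interval from -0.19 to 0.41 at 24 h, and none was called.

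ATF3, which pairs with JUN proteins, represses many promoters as a homodimer and is induced by many kinds of stress, lies on chromosome 1 from 212565407 to 212620777. Its signals in Caki-1 were 7.75, 7.98 and 8.16 under DMSO, 8.36, 8.89 and 8.87 at 6 h, 8.44, 8.77 and 8.72 at 12 h, and 8.87, 8.96 and 9.07 at 24 h. In 769-P they were 7.67, 7.09 and 7.54 under DMSO, 9.27, 9.12 and 9.02 at 6 h, 9.69, 9.35 and 9.10 at 12 h, and 9.51, 9.44 and 9.66 at 24 h. All treated arrays lay above all DMSO arrays in each line. The treated groups of 769-P overlapped from one time to the next, and in Caki-1 the 6 h arrays overlapped both later groups, while the 24 h arrays lay above the 12 h arrays. ATF3 rose by 0.75 ± 0.14 at 6 h (adjusted p = 0.00117) and by 1.01 ± 0.14 at 24 h (adjusted p = 1.79e-05) in Caki-1. In 769-P it rose by 1.70 ± 0.15 (adjusted p = 4.94e-07) and 2.10 ± 0.15 (adjusted p = 8.76e-09) at those times, a 4.30-fold higher signal at 24 h.

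Of the 7 probe sets of ATF3 only 3 lay above the filter, and they differed in size. At 24 h all 3 rose in both lines, from 0.33 to 1.01 in Caki-1 and from 0.26 to 2.10 in 769-P, and the probe set read for the gene gave the highest value in each line. At 6 and 12 h in Caki-1 neither of the other 2 was called, with changes of 0.16 and 0.37 at 6 h (adjusted p = 0.353 and 0.14) and 0.08 and 0.21 at 12 h (adjusted p = 0.577 and 0.334), so the early rise of ATF3 in Caki-1 rests on 1 probe set. In 769-P 2 of 3 rose at 6 h, the other being at 0.35 (adjusted p = 0.132), and all 3 rose at 12 h. The plot of every probe set against its mean signal shows this spread beside those of the other genes.

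**Figure D3:**
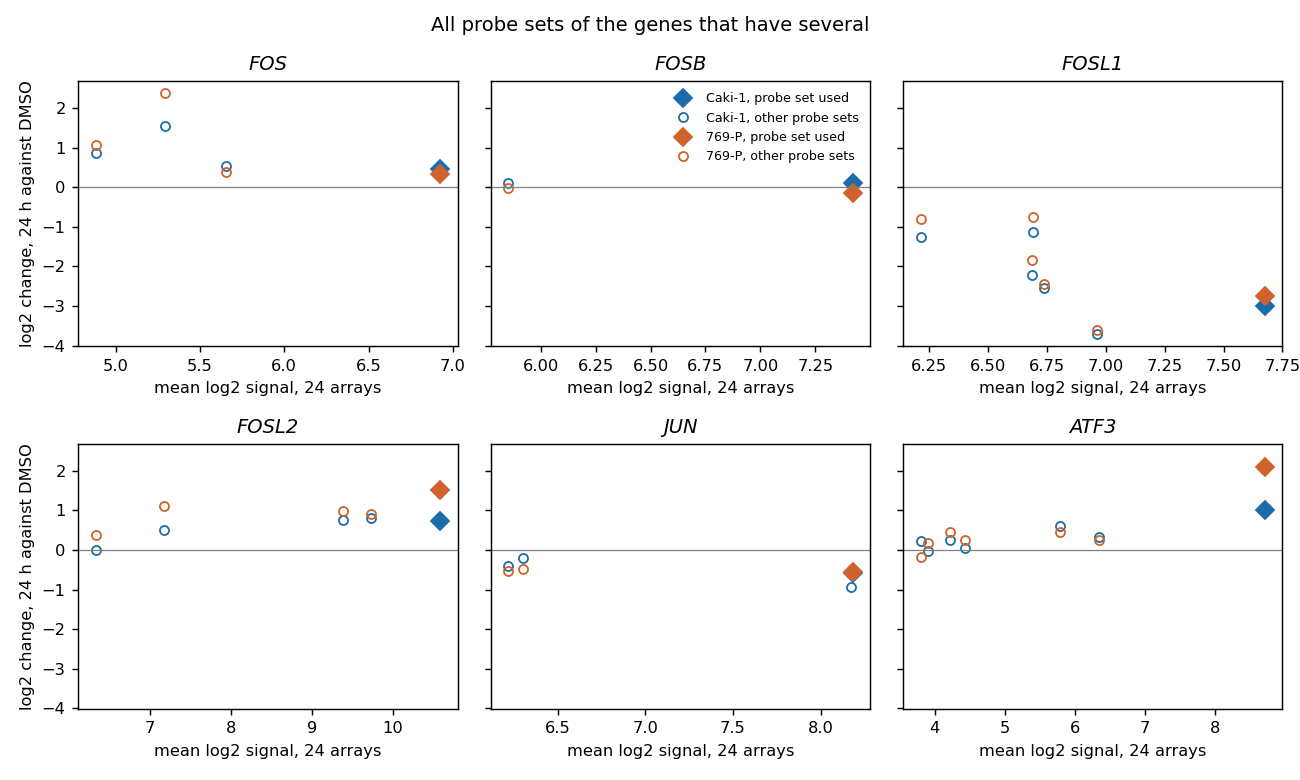
Log2 change at 24 h against DMSO (vertical axis) of every single-gene probe set of the 6 AP-1 genes with several, set against its mean log2 signal over the 24 arrays (horizontal axis), for Caki-1 (blue) and 769-P (orange), with filled diamonds for the probe set read for the gene. All 6 FOSL1 probe sets lie below 0, and for FOS the largest change, 2.38 in 769-P, belongs to a dimmer probe set than the one read for the gene.

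The promoters of JUN and ATF3 are shown because both hold TGACATCA, the variant of the AP-1 and CRE sites known from the JUN promoter, and the genes changed in opposite directions. They are the 250 bases before the annotated start from RefSeq (GRCh38.p14), written 5′ to 3′ along the gene's strand, with the match in capitals. JUN is at chr1:58784048-58784297 on the minus strand, and ATF3, at the first of 2 starts, at chr1:212565157-212565406 on the plus strand.
JUN: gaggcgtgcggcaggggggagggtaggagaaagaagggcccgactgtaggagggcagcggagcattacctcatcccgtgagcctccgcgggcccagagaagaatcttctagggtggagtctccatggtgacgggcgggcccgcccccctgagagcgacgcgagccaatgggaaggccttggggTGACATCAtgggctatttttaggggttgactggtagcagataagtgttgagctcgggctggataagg
ATF3: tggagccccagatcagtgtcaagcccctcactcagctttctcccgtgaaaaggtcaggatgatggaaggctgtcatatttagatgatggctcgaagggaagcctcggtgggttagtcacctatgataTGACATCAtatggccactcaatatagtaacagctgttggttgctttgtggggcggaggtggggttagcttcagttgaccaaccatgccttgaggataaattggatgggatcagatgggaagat

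RefSeq promoters (250 bases before to 50 after the start) were given for 7 of the 9 genes, all but FOSL1 and BATF3, and were searched on both strands. The match lies at bases -67 to -60 from the start in JUN and -123 to -116 in ATF3, and TGACATCA is in 2.61% of 35116 RefSeq promoters. TGACGTCA, the full CRE, was in JUND only, at -200 to -193, and in 1.85% of all. TGANTCA, the AP-1 site, was in FOSL2 only, at 5 to 11 after the start, and in 7.71% of all. GGGCGG was in 6 of the 7 and in 45% of all, TATAAA in 4 (FOS, FOSB, JUNB and ATF3, there at its second start) and in 11.5%, and neither the CArG box bound by SRF (1.29%) nor GGAATG, a TEAD site (14%), was found in any. These are letters in a window of fixed length, so a match is not a measured binding site. Sites more than 250 bases before the start were not searched, so a motif not found here may lie further out.

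BATF3, a small subunit of basic region and zipper alone that pairs with JUN proteins and is best known from dendritic cells, lies 65.6 kb beyond ATF3 on chromosome 1, from 212686417 to 212699840, and has 1 probe set. It read 7.46, 7.33 and 7.40 under DMSO in 769-P, 6.95, 6.62 and 6.86 at 6 h, 6.93, 6.68 and 6.96 at 12 h, and 7.14, 6.43 and 6.79 at 24 h. All 9 treated arrays lay below the 3 DMSO arrays. BATF3 fell at the 3 times, with changes of -0.58, -0.54 and -0.61 ± 0.15 (adjusted p = 0.00758, 0.00739 and 0.00257), while its neighbour ATF3 rose. In Caki-1, where its arrays ran from 5.98 to 6.85, it fell by 0.52 ± 0.13 at 12 h (adjusted p = 0.00474), and the change of -0.32 ± 0.13 at 24 h was just outside the threshold (adjusted p = 0.0529). That value passed under median centring of the arrays, at -0.37 with an adjusted p of 0.0251.

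Steps between times were called for 2 or 3 of the 9 subunits, near the shares of all genes. From 6 to 12 h, 2 of 9 were called in Caki-1 (FOSL1 lower, FOSL2 higher) against 26.9% of all genes (12.5% higher, 14.5% lower), and 2 in 769-P (FOSL2 and JUN higher) against 19.1% (8.91% and 10.2%). From 12 to 24 h, FOS, FOSL2 and JUN rose in Caki-1, 3 of 9 against 25.2% (10.9% higher, 14.2% lower), and FOSL2 and JUN rose in 769-P, 2 of 9 against 27.7% (17.0% and 10.8%). The step of FOS, 0.25 with an adjusted p of 0.0418, was lost without any 1 of the 12 h arrays or without replicate 1 or 2 of the 24 h group, at adjusted p of 0.0677 to 0.124. That call was also lost under median centring and with no filter (adjusted p = 0.0613 and 0.0756). FOSL2 rose by 0.42 and 0.37 at these steps in Caki-1 and by 0.44 and 0.39 in 769-P. Of its 5 probe sets 3 rose at each step in Caki-1, and 1 and then 2 rose in 769-P. With the mean of its probe sets the 6 to 12 h step of 769-P was 0.13 (adjusted p = 0.316), which left 1 subunit called there. The 12 to 24 h step of 769-P lost its call without replicate 2 or 3 of the 12 h group, at an adjusted p of 0.0532 and 0.075, which again left 1 subunit called. FOS in that step was 0.20 and not called (adjusted p = 0.147), and 0.89 with the mean of its probe sets (adjusted p = 7.69e-06), which holds the dim ones just described.

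The 2 lines differed in the subunits they carried before treatment. Under DMSO, 7 of the 9 genes were called between them, 3 higher and 4 lower in Caki-1, where 58.7% of all tested genes were (28.8% higher, 29.9% lower). The differences are Caki-1 less 769-P. JUN stood at -2.11 ± 0.18 (adjusted p = 1.73e-10), JUNB at -1.03 ± 0.09 (adjusted p = 9.1e-10) and BATF3 at -0.70 ± 0.15 (adjusted p = 0.000289), all lower in Caki-1. FOSL1 was 0.93 ± 0.20 higher in Caki-1 (adjusted p = 0.000287), as were all 6 of its probe sets, and FOSL2 was 0.76 ± 0.10 higher (adjusted p = 6.53e-07). ATF3 was 0.53 ± 0.16 higher in Caki-1 (adjusted p = 0.00558), but 0.36 with an adjusted p of 0.0646 without replicate 2 of the 769-P DMSO group. Its other 2 probe sets above the filter were not called, at 0.18 and -0.08 (adjusted p = 0.141 and 0.722). FOSB was lower at -0.35 (adjusted p = 0.00556), but at -0.21 with the mean of its probe sets it was not called (adjusted p = 0.0656). FOS and JUND were not called, at -0.13 (95% interval -0.31 to 0.05) and -0.07 (-0.33 to 0.20).

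Whether dasatinib changed a subunit differently in the 2 lines was tested on the change in Caki-1 less that in 769-P. At 6 h, 4 of 9 were called against 8.09% of all genes (3.68% positive, 4.42% negative), with JUN and JUNB on the positive side and FOSL2 and ATF3 on the negative. At 12 h and at 24 h, 3 of 9 were called (JUNB, FOSL2 and ATF3), against 18.9% (8.67% and 10.3%) and 36.0% (13.8% and 22.1%). For JUN the difference was 1.35 ± 0.25 at 6 h (adjusted p = 0.000794), the fall being deeper in 769-P, and all 4 of its probe sets showed it, at 1.23 to 1.54. It was 0.40 at 12 h (95% interval -0.11 to 0.92) and -0.03 at 24 h (-0.55 to 0.49), neither called. Of the 4 probe sets of JUN, another 1 was called at 12 h, at 0.81 (adjusted p = 0.0347), and none at 24 h. For JUNB, which rose in Caki-1 at 12 and 24 h and fell in 769-P at all 3 times, the difference was 0.67, 0.97 and 1.00 at the 3 times (adjusted p = 0.00156, 1.01e-05 and 3.48e-06).

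For FOSL2 the difference was -0.75, -0.77 and -0.79 (adjusted p = 0.00131, 0.000414 and 0.000171), the rise being larger in 769-P. It was called in 4 of its 5 probe sets at 6 and 12 h and in 2 at 24 h, where they ran from -0.79 to -0.10. For ATF3 the difference was -0.96, -1.26 and -1.10 (adjusted p = 0.00642, 0.000181 and 0.000433). Only the probe set read for the gene was called at each time, 1 of the 3 tested. At 24 h the other 2 stood at 0.07 and 0.16, so the line difference of ATF3 rests on the probe set read for it. FOSL1, FOS, FOSB, JUND and BATF3 were not called at any time by the probe sets read for them, whose intervals are in the plot of line differences. Of the 6 probe sets of FOSL1, another 1 was called at 6 h, at 1.41 (adjusted p = 0.00397), and another 1 at 24 h, at -0.43 (adjusted p = 0.0432). For FOS, 1 of 3 was called at 24 h, the dim one that changed most, at -0.83 (adjusted p = 0.0443).

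**Figure D4:**
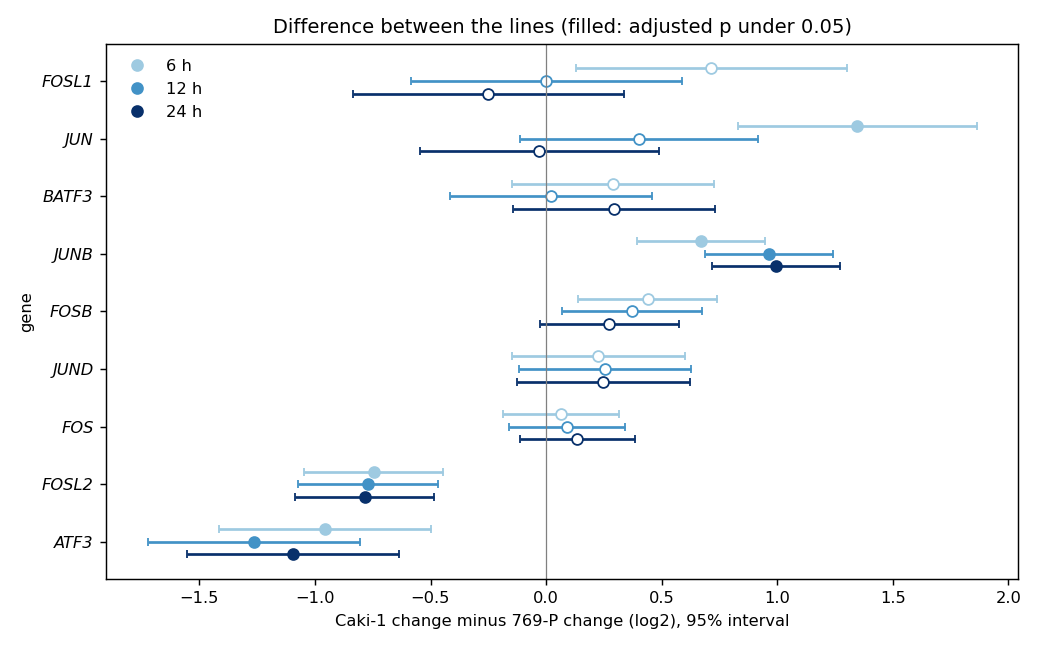
Change in Caki-1 less that in 769-P in log2 units (horizontal axis) with 95% intervals for each AP-1 gene (vertical axis) at 6, 12 and 24 h, in darker blue for later times, with filled points where the adjusted p was under 0.05. JUNB lies to the right at 0.67 to 1.00, FOSL2 and ATF3 lie to the left, and JUN moves from 1.35 at 6 h to -0.03 at 24 h.

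Genes whose pattern was most like that of each subunit were sought among 11912 genes tested in both lines, by Pearson's r over the 24 arrays after the mean of each line was taken off. These arrays share lines, times and treatment, so high values are common and are given as descriptions. FOSL1 was closest to NOP16, a nucleolar protein (0.98), and EHD4, a protein of endosome transport (0.97). JUN was closest to MYC (0.94), a growth-promoting transcription factor, and PNP (0.92), an enzyme of purine salvage. ATF3 was closest to CHMP1B (0.96), a part of the ESCRT membrane machinery, and ARMCX6 (0.95). FOSL2 was closest to VPS13B (0.97) and ATP6V0E1 (0.96), a subunit of the vacuolar proton pump.

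The remaining subunits had these neighbours in the same search. JUNB was closest to FERMT2 (0.93), the focal adhesion protein kindlin-2, and PLEC (0.87), the cytoskeletal linker plectin. FOS was closest to CCNL1 (0.92) and ASAH1 (0.91), the lysosomal acid ceramidase. BATF3 was closest to TUBA3C (0.83) and CD70 (0.82), JUND to STARD3 (0.86) and CELF3 (0.79), and FOSB, which was called at no time, had the lowest values, with POU3F3 (0.65) and ARRDC5 (0.63). Among the subunits themselves, FOSL1 and ATF3 gave -0.846, FOSL2 and ATF3 0.831, FOSL1 and BATF3 0.795, FOS and FOSL2 0.745, ATF3 and BATF3 -0.714, and FOSL1 and JUN 0.704, over the same 24 arrays.

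Genes that AP-1 is known to drive were read as a list of 30, of which 28 were on the array and 23 in Caki-1 and 20 in 769-P were tested. In Caki-1, 7, 10 and 11 of 23 fell and 3, 5 and 4 rose at 6, 12 and 24 h, with medians of -0.11, -0.12 and -0.16. In 769-P, 9, 11 and 14 of 20 fell and 1, 1 and 3 rose, with medians of -0.26, -0.57 and -1.55. Of all tested genes 14.0%, 24.4% and 29.9% fell and 12.3%, 24.1% and 32.9% rose at the 3 times in Caki-1. In 769-P 14.5%, 22.6% and 24.6% fell and 16.4%, 24.9% and 31.1% rose, and the all-gene medians were the small values given above. The difference between the lines at 24 h was positive for 16 of 23 listed genes and negative for 2, with a median of 1.01, where 13.8% of all genes were positive, 22.1% negative and the median was -0.0139.

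MMP1, the interstitial collagenase and a classic AP-1 target, fell by 4.83 ± 0.20 at 24 h in 769-P (adjusted p = 1.38e-11) and fell by 1.565 ± 0.47 in Caki-1 (adjusted p = 0.0096). CCND1, which encodes cyclin D1 of the G1 phase, fell by 2.82 ± 0.14 in 769-P (adjusted p = 1.13e-10) and fell by 1.81 ± 0.17 in Caki-1 (adjusted p = 2.34e-07). INHBA, the activin A subunit, fell by 2.48 ± 0.14 in 769-P (adjusted p = 7.34e-10), and CCN1, a matricellular protein that YAP and TEAD also drive, fell by 2.34 ± 0.22 in Caki-1 (adjusted p = 3.16e-07). Many of these genes answer to other factors as well, and whether the subunits moved them was not tested.

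**Figure D5:**
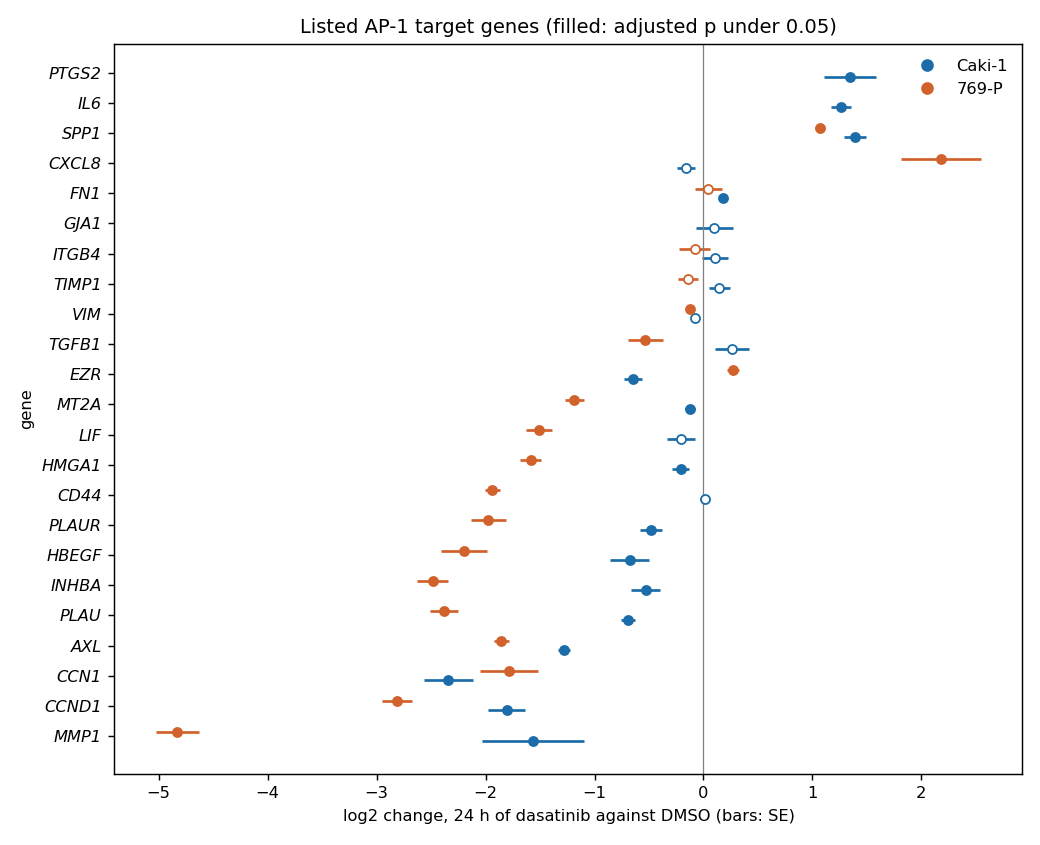
Log2 change at 24 h of dasatinib against DMSO (horizontal axis, bars are SE) of each listed AP-1 target gene tested (vertical axis), for Caki-1 (blue) and 769-P (orange), with filled points where the adjusted p was under 0.05. In 769-P 14 of 20 genes fell, led by MMP1 at -4.83, and in Caki-1 11 of 23 fell.

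Upstream of AP-1, 12 of 15 listed MAP kinase pathway genes were measured and tested. At 24 h, 5 rose and 3 fell in Caki-1 and 4 rose and 3 fell in 769-P, and the medians were 0.07 and 0.06. These are 66.7% and 58.3% of the list, near the 62.8% and 55.7% of all genes. At 6 h, 1 rose and 2 fell in Caki-1 and 2 rose and 1 fell in 769-P, against 26.3% and 30.9% of all genes called. At 12 h, 3 rose and 4 fell in Caki-1 and 2 rose and 3 fell in 769-P, against 48.4% and 47.5%. MAPK3, the ERK1 kinase, rose at 24 h by 1.18 ± 0.13 in Caki-1 and 0.71 ± 0.15 in 769-P (adjusted p = 1.02e-06 and 0.000554), and MAPK10, the JNK3 kinase, by 0.95 and 0.85 (adjusted p = 1.1e-06 and 0.000475). RPS6KA3, the ERK-activated kinase RSK2, fell by 0.73 in Caki-1 (adjusted p = 0.000117), and MAP2K5, which activates ERK5, rose by 0.64 in 769-P (adjusted p = 3.35e-05). These are transcript levels, and kinase activity was not measured.

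Of 9 listed factors that drive FOS and JUN 8 were tested. At 6, 12 and 24 h, 2, 3 and 4 rose and 3, 2 and 2 fell in Caki-1, and 2, 2 and 3 rose and 2, 2 and 3 fell in 769-P. The shares called were 62.5%, 62.5% and 75% in Caki-1, beside 26.3%, 48.4% and 62.8% of all genes, and 50%, 50% and 75% in 769-P, beside 30.9%, 47.5% and 55.7%. ELK3, a partner of SRF, fell by 1.36 ± 0.09 (adjusted p = 5.85e-09) and SRF itself fell by 0.78 ± 0.10 (adjusted p = 3.94e-06) at 24 h in 769-P. MEF2D, which binds the JUN promoter, rose by 1.05 ± 0.10 in Caki-1 (adjusted p = 2e-07) and by 0.88 ± 0.10 in 769-P (adjusted p = 2.16e-06). In Caki-1 the SRF coactivator MRTFB rose by 0.52 and CREB1 by 0.49 (adjusted p = 4.53e-06 and 0.000142).

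Among other zipper proteins that can pair with AP-1 subunits, 8 of 10 were measured, and 5 in Caki-1 and 6 in 769-P were tested. At 6, 12 and 24 h, 0, 1 and 2 rose and 2, 2 and 1 fell in Caki-1, and 1, 2 and 2 rose and 1, 1 and 0 fell in 769-P. The shares called were 40%, 60% and 60% in Caki-1, beside 26.3%, 48.4% and 62.8% of all genes, and 33.3%, 50% and 33.3% in 769-P, beside 30.9%, 47.5% and 55.7%. MAF, a large zipper factor, rose by 4.30 ± 0.48 at 24 h in 769-P (adjusted p = 1.32e-06) and lay below the filter in Caki-1, where it was not tested. ATF2, which pairs with JUN, rose by 0.45 ± 0.11 in Caki-1 (adjusted p = 0.00295) and by 0.51 ± 0.09 in 769-P (adjusted p = 0.000107). In Caki-1 JDP2, a repressor that pairs with JUN, fell by 0.34 (adjusted p = 0.00617), and MAFG rose by 0.20 (adjusted p = 0.0491).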

How the data were processed

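For each array the authors deposited a log2 signal per probe set. MAS5 is named in the submitters' processing notes, while its version, its settings and how arrays were scaled are not given in the sources used here. MAS5 was written for arrays with mismatch probes, which PrimeView lacks, and how it was run here is not known. Scanner intensities were not used here.

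Of 49395 probe sets, 102 were array controls, 44988 named exactly 1 gene on the platform annotation, 1832 several and 2473 none. Genes were tested in a line if their mean lay above the 40th percentile of all probe sets there (5.379 in Caki-1, 5.361 in 769-P), which left 12423 and 12354 genes, and 12864 that passed in at least 1 line. The probe sets read for FOSB, FOSL1, JUNB and JUND end in _x_at and that for FOS in _s_at, which mark probes that can match other transcripts.

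Comparisons with DMSO and between times were fitted on the 12 arrays of a line (8 residual degrees of freedom), and those between lines on all 24 (16 degrees of freedom), with lmFit and eBayes (intensity trend) in limma 3.58.1 under R 4.3.3, with the data.table package at version 1.17.8. P-values were adjusted by the Benjamini-Hochberg method over all genes tested. The median SE was 0.1, 0.105 and 0.151 in Caki-1, 769-P and between the lines, and the number of arrays limits the precision. The procedure was tested on simulated data. Groups came from the sample labels.

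All 9 subunits were named, with the up to 3 called genes of largest change at 24 h in each line from the lists of other bZIP partners, MAP kinases, factors that drive FOS and JUN, and AP-1 target genes, and the 2 genes most like each subunit. The members and lists were chosen with earlier results of these data known. Equally numbered arrays were checked as pairs by correlating their deviations from the group means. Correlations of all pairs exceeded 0.1 for 769-P at 6 h (0.111 to 0.362) and 24 h (0.122 to 0.17) against DMSO, and for 12 h against 6 h in Caki-1 (0.134 to 0.256) and 769-P (0.17 to 0.303) and 24 h against 12 h in 769-P (0.165 to 0.185). Alternatives were quantile normalization, median centring, no filter or the 60th percentile, the mean of a gene's probe sets, no intensity trend, a replicate block, 1 fit of all arrays, and leaving out each array. Fits of each single-gene probe set, and of the FOS probe sets without a filter (changes only are given), were added after seeing the data.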

Additional observations from a re-analysis of the deposited data

Results flagged for a closer look

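For 4 of the 9 subunits the change under dasatinib differed between Caki-1 and 769-P by the test of the difference itself (limma, all 24 arrays), given here as the change in Caki-1 less that in 769-P. At 6, 12 and 24 h, 4, 3 and 3 of the 9 were called, against 8.09%, 18.9% and 36.0% of all genes. The count at 24 h was thus near the share of all genes. JUNB differed at all 3 times, by 0.6711, 0.9654 and 0.9951 at 6, 12 and 24 h, with an SE of 0.134 each. JUN differed at 6 h by 1.346 ± 0.25. FOSL2 differed by -0.7462, -0.7704 and -0.7853, with an SE of 0.146, and only 2 of its 5 probe sets were called at 24 h. ATF3 differed by -0.9569, -1.265 and -1.096, with an SE of 0.222, and only 1 of its 3 tested probe sets was called at each time.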

How the results depend on the processing

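Each alternative was set against up to 91 reported values. The count was 91 for quantile normalization, 91 for median centring and 91 for the replicate block. The numbers whose call or direction was not kept were 3, 4 and 3 there, 2 of 91 without a filter, 2 of 91 without the intensity trend, 8 of 80 with the mean of probe sets, 1 of 66 in 1 fit of all arrays and 0 of 81 with the filter at the 60th percentile. The mean of the ATF3 probe sets lay under the filter, so no value of ATF3 was tested under that alternative. JUND, and BATF3 in Caki-1, lay under the 60th percentile and were not tested with that filter. Leaving out 1 array kept 604 of 642 values on their side. No value that was called in the report changed sign under any alternative run.

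The number of subunits called in 769-P for 12 h against 6 h was 1 in place of 2 with the mean of all probe sets, and for 24 h against 12 h it ranged from 1 to 2 over the fits that left out 1 array. Changes of sign were limited to values near 0 that were never called. FOS at 6 h in 769-P was -0.0047 under quantile normalization, -0.0052 under median centring and -0.082 with the mean of probe sets, and ran from -0.018 to 0.044 with 1 array left out. FOSL2 at 6 h in Caki-1 was 0.0060 with the mean of probe sets. The line difference of JUN at 24 h was 0.0076 with that mean, and -0.17 to 0.064 with 1 array left out. JUND at 6 h in 769-P ran from -0.098 to 0.13 with 1 array left out.

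The replicate block ended the calls of FOS in Caki-1 at 12 h (0.22 ± 0.092, adjusted p = 0.0566) and for 24 h against 12 h (0.25 ± 0.092, adjusted p = 0.0563), and added that of ATF3 in Caki-1 for 24 h against 12 h (0.32 ± 0.0877, adjusted p = 0.0123). Equal numbers did not pair those arrays by the check used, and the block changed no other call. The cause of these changes was not tested. Dim probe sets, such as those of FOS under DMSO, limit what can be measured of small changes.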
